A study of Homo sapiens with 6 samples.

Results

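Stanniocalcins, pregnancy-associated plasma protein A (PAPP-A), the insulin-like growth factor (IGF) binding proteins and the IGF receptor were followed in DU145 cells with or without overexpression of circCSPP1, a circular RNA made from CSPP1. The 10 genes (STC1, STC2, PAPPA, PAPPA2, IGFBP2, IGFBP3, IGFBP4, IGFBP5, IGFBP6 and IGF1R) were found by symbol among the 19727 genes of the deposited table. They were selected by their place in this pathway with earlier results of the same OE against NC contrast known, so their differences between the groups are given as a description and not as a test. DU145 is an established line from a brain metastasis of human prostate cancer. The OE group (circCSPP1 overexpression) carried lentivirus-circCSPP1 and the NC group (genotype normal) carried lentivirus-NC, with 3 libraries of polyadenylated RNA in each. According to the study's methods, lentivirus-transfected cells were selected with puromycin into stable lines, so both groups share viral transfer and selection. An effect of circCSPP1 cannot be told apart from that of other sequence that only its vector carries. Nor can it be told apart from a difference between the selected cells of the groups. Nothing in the labels says that the 3 libraries of a group came from separate cultures, so p-values measure only the spread between these libraries, which may be technical.

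IGF1 and IGF2 signal through the receptor tyrosine kinase encoded by IGF1R. In the fluid around cells most IGF is held by binding proteins (IGFBPs), which keep it from the receptor until a protease cuts them. PAPP-A cuts IGFBP-4 and IGFBP-5, and its relative PAPP-A2 cuts IGFBP-3 and IGFBP-5. The stanniocalcins STC1 and STC2 are secreted glycoproteins that bind both proteases and block them. In epithelial tumours STC2 is also known as a gene induced by cellular stress. The files hold transcript levels, and secretion, cleavage and free IGF were not measured.

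miR-520h is the microRNA that the study examined together with circCSPP1, and the 3′ UTRs of the 10 genes were searched for matches to its seed. The mature miRNA (RefSeq, GRCh38.p14) is shown with bases 2 to 8, the seed, in capitals, followed by the 1 match of 7 bases found among the 10 genes, in PAPPA, and by the 2 matches of 6 bases in PAPPA2, the other protease gene. The bases that pair with the seed are in capitals.
hsa-miR-520h: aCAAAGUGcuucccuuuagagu
PAPPA, chr9:116398143-116398172, plus strand: gaagcccccacCACTTTGgggatctcttta
PAPPA2, chr1:176843093-176843122, plus strand: atgaatgttgagACTTTGaggacagaaagg
PAPPA2, chr1:176844742-176844771, plus strand: ttggagaatcctACTTTGtctgagattgag
The coordinates and the 3′ UTRs are those of GENCODE release 29 on GRCh38. CACTTTG was searched as the match of 7 bases and ACTTTG, which lies within it, as the match of 6, on the transcript strand. The longest 3′ UTR of PAPPA has 5706 nt and that of PAPPA2 has 3151 nt, and PAPPA held 1 further match of 6 bases. The 3′ UTRs of STC2 (3134 nt), IGFBP4 (1148 nt), IGFBP6 (178 nt), IGFBP2 (332 nt) and IGF1R (7088 nt) held 0 matches of 6 or 7 bases, and those of STC1, IGFBP3 and IGFBP5 held 1 match of 6 bases each. Among the 12213 tested genes with a 3′ UTR, 25.3% held the match of 7 bases and 48.2% the match of 6 bases. STC2 and IGFBP4, the genes with the widest differences below, were thus without these letters in this stretch.

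The libraries had a depth of 28900000 to 36600000 fragments, which was computed from the steps between low values, and the ranges of the groups overlapped. Values are FPKM (fragments per transcript length and per total of the library), so levels of different genes are compared per length. CSPP1 measured 9.11, 10.1 and 9.44 FPKM in NC and 14.5, 22.8 and 21.4 FPKM in OE, where the linear transcript, the circle and the vector are not separated. The log2 difference (OE minus NC on the log2(FPKM + 1) scale, as everywhere below) was 0.94 for CSPP1, with a standard error (SE) of 0.17 (limma, adjusted p = 0.016). It was not called without OE replicate 3 or any 1 of the NC libraries (limma, adjusted p = 0.067 to 0.075). Among the OE libraries, replicate 1 stood apart. Its departure from the mean of the other OE libraries followed transcript GC content across 7663 genes with a Spearman correlation of 0.807, against -0.753 and -0.555 for OE replicates 2 and 3 and -0.0802 to 0.114 for the NC libraries. Genes of 1 library share its composition, so this is a description. Epithelial markers were present and all 4 were lower in OE, with a summed level of 1729 to 1801 FPKM in NC and 715 to 854 FPKM in OE. The log2 difference was -1.58 for CDH1, which encodes E-cadherin, and -1.42 for KRT8, a simple epithelial keratin (limma, adjusted p = 0.0016 and 0.00056). The part of this shift in the differences of STC2, IGFBP4, PAPPA2 and IGFBP6 was not tested. Of the prostate luminal markers reported, KLK3, KLK2 and FOLH1 were each listed at 0 in every library. The 7 fibroblast markers summed to 3.02 to 4.39 FPKM in NC and 1.35 to 3.02 FPKM in OE. COL1A1 was the highest of them in every library, PDGFRA and PDGFRB came near it in OE replicate 2 (0.93 and 0.71 FPKM against 1.11 FPKM), and LUM was at 0 throughout. The 4 leukocyte markers summed to 43.95 to 49.8 FPKM in NC and 35.9 to 50.4 FPKM in OE, nearly all of it CD68, with CD3E at 0 throughout. In bulk RNA, a change in the number of cells of a kind and a change in RNA per cell cannot be told apart.

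Of the 10 genes, 8 had a mean of at least 1 FPKM and entered the test, while PAPPA and IGFBP5 did not. STC2 was the gene with the highest mean level and the widest difference, 4.65 times higher in OE than in NC. IGFBP4 was 3.31 times lower in OE, PAPPA2 was 2.06 times higher at a low level, and IGFBP6 was lower by a smaller amount. STC1, IGFBP2, IGFBP3 and IGF1R had overlapping groups. STC2, PAPPA2 and IGFBP4 passed an adjusted p of 0.05 in limma over all 12322 tested genes, which 11.4% of those genes did (4.69% higher and 6.66% lower in OE). STC2 and IGFBP4 also passed the sizes of p and log2 fold change that the study used as thresholds (0.01 and 1.5), read here as an unadjusted limma p and a difference on the log2(FPKM + 1) scale, which 0.195% of the tested genes did. The groups did not overlap in 4 of the 8 genes, against 36.4% of all tested genes. The median log2 difference of the 8 genes was -0.08 and that of all tested genes was -0.03. Since the genes were chosen with this contrast known, nothing is read from these counts.

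**Figure D1:**
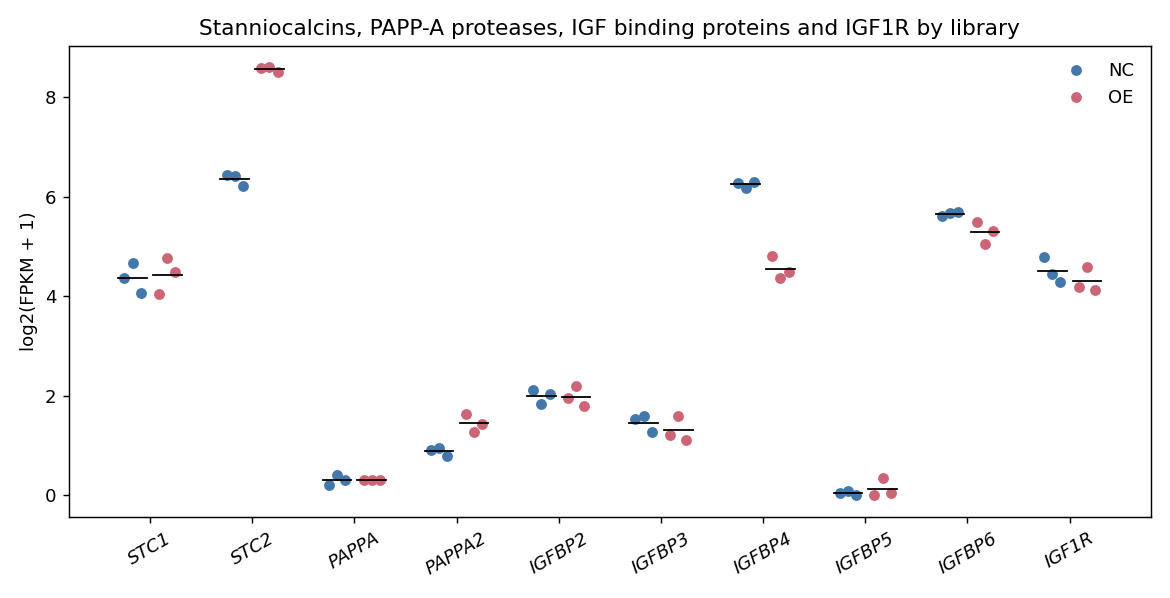
Level of each of the 10 genes in each library, on the log2(FPKM + 1) scale; points are libraries (NC blue, OE red) and the black line is the group mean. The OE points of STC2 (mean 377 FPKM) lie well above its NC points (mean 81.0 FPKM), IGFBP4 shows the opposite order, and the groups of STC1, IGFBP2, IGFBP3 and IGF1R overlap.

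STC2, which encodes the stanniocalcin that binds PAPP-A covalently, is at 173314713 to 173329503 of chromosome 5 (GRCh38, minus strand). It measured 85.3, 84.8 and 73.1 FPKM in NC replicates 1, 2 and 3, and 384, 386 and 360 FPKM in OE replicates 1, 2 and 3. The lowest OE library was far above the highest NC library, and OE replicate 1 was no different in this respect from the other OE libraries. The mean of NC was 81.0 ± 6.90 FPKM and that of OE 377 ± 14.5 FPKM (SD, n = 3), a difference which is 2.21 on the log2 scale (SE 0.086). This was the change ranked 4 from the top among the tested genes. The level of STC2 ranked 1331 of 19727 genes in NC and 199 in OE.

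STC1, the other stanniocalcin, lies on chromosome 8 from 23841915 to 23854807 on the minus strand. It measured 19.6, 24.4 and 15.6 FPKM in NC and 15.4, 26.1 and 21.5 FPKM in OE. Both the lowest and the highest value came from OE libraries, so the groups overlapped throughout. The log2 difference was 0.07, with a 95% interval from -0.44 to 0.58. The value of STC2 was 2.21, and whether the stanniocalcins differed from each other in this was not tested. STC2 exceeded STC1 by 3.48 to 4.67 times in NC and by 14.8 to 24.9 times in OE. STC2 made up 80.5% ± 2.48 of the summed stanniocalcin FPKM in NC and 94.7% ± 1.27 in OE (SD, n = 3).

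The protease genes that stanniocalcins act on were expressed at a low level. PAPPA, on chromosome 9 from 116153804 to 116402322, measured 0.16, 0.33 and 0.24 FPKM in NC and 0.24, 0.23 and 0.24 FPKM in OE. With the longest coding transcript of 10959 nt, these values correspond to about 52 to 105 fragments per library, and the groups overlapped. PAPPA2, on chromosome 1 from 176463171 to 176845605, measured 0.87, 0.93 and 0.73 FPKM in NC and 2.11, 1.42 and 1.69 FPKM in OE, about 249 to 663 fragments. All OE libraries lay above all NC libraries, and OE replicate 1 was the highest. Means were 0.843 ± 0.103 and 1.74 ± 0.348 FPKM (SD, 3 libraries each). The log2 difference was 0.57 (SE 0.13) on the log2(FPKM + 1) scale, which understates the change of so low a gene, and 1.03 with a pseudocount of 0.01. PAPPA2 passed the filter on low values through its OE libraries, since its NC mean was under 1 FPKM. It did not pass an adjusted p of 0.05 when OE replicate 3 or any 1 of the NC libraries was left out, with a log2 difference of 0.52 to 0.60. Nor did it pass without moderation of the variance. The NC level of STC2 was thus far above that of both proteases, and in OE the distance between STC2 and PAPPA2 was wider still.

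IGFBP4 encodes the binding protein that is the classical substrate of PAPP-A. It lies on chromosome 17 from 40443461 to 40457731 on the plus strand. It measured 76.2, 71.2 and 77.2 FPKM in NC and 26.9, 19.6 and 21.5 FPKM in OE. All OE libraries were well below all NC libraries, and OE replicate 1 was the nearest to them. Group means were 74.9 ± 3.20 and 22.7 ± 3.81 FPKM (SD, 3 libraries each). The log2 difference was -1.69 (SE 0.13), and 4 tested genes had a lower one. Without OE replicate 1 it was -1.82.

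IGFBP6 encodes a binding protein that prefers IGF2, and lies on chromosome 12 from 53097436 to 53102345. It measured 48.0, 49.8 and 50.6 FPKM in NC and 44.1, 32.0 and 38.6 FPKM in OE, with means of 49.5 ± 1.29 and 38.2 ± 6.05 FPKM (SD, 3 libraries each). The groups did not overlap, but OE replicate 1 was close to NC replicate 1 and the OE libraries were spread over a wider range than the NC libraries. The log2 difference was -0.38 (SE 0.12, 95% interval from -0.66 to -0.09), and it did not pass an adjusted p of 0.05 over all genes. It passed without OE replicate 1, at -0.48, and after a correction for GC content and length, at -0.41. Over all tested genes 3514 and 3354 passed in these fits, against 1399 as reported. IGFBP6 did not pass in the other 15 alternatives.

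IGFBP2 and IGFBP3, which bind both IGFs, were expressed at a few FPKM or less. IGFBP2, on chromosome 2 from 216632828 to 216664436, measured 3.31, 2.54 and 3.08 FPKM in NC and 2.90, 3.56 and 2.45 FPKM in OE. The highest and the lowest value were both in OE, and the log2 difference was -0.0070 (95% interval from -0.34 to 0.33). IGFBP3, on chromosome 7 from 45912245 to 45921874, measured 1.88, 2.0 and 1.40 FPKM in NC and 1.32, 2.03 and 1.17 FPKM in OE. Its groups overlapped, with a log2 difference of -0.15 (95% interval from -0.52 to 0.23). About 102 to 178 fragments of IGFBP2 and 82 to 170 of IGFBP3 stood behind these values per library.

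IGFBP5, a substrate of both proteases, is the neighbour of IGFBP2 on chromosome 2, with 7669 nt between the genes, and is transcribed from the opposite strand. It was listed at 0.03, 0.06 and 0 FPKM in NC and at 0, 0.27 and 0.03 FPKM in OE, so OE replicate 2 alone stood out. That library also held the highest values of other genes near 0, with 1.03 FPKM for IGFBP7, 0.93 FPKM for PDGFRA and 0.78 FPKM for IGF2. In OE replicate 2, 57 genes reached 0.2 FPKM that were under 0.1 FPKM in the other 5 libraries, and the same count was 9 to 27 in each of those. Whether these genes share a source was not tested.

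The summed FPKM of IGFBP2 to IGFBP6 was 126 to 132 in NC and 57.4 to 75.2 in OE. IGFBP4 made up 58.0% ± 1.15 of this sum in NC and 34.5% ± 1.10 in OE (SD, n = 3), while IGFBP6 made up 38.3% ± 1.29 and 58.3% ± 2.44. Among these genes IGFBP4 was the leading binding protein transcript in every NC library and IGFBP6 in every OE library. The ratio of IGFBP4 to IGFBP6 was 1.43 to 1.59 in NC and 0.557 to 0.612 in OE. These shares were computed within a library, so they do not depend on the factor by which a library was scaled.

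**Figure D2:**
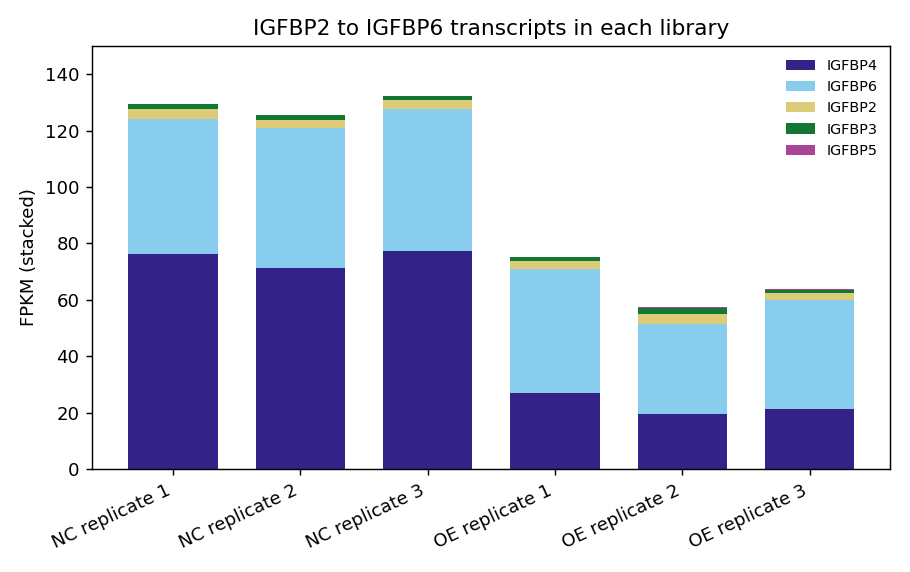
Stacked FPKM of IGFBP4, IGFBP6, IGFBP2, IGFBP3 and IGFBP5 in each library (vertical axis from 0). The NC bars reach 126 to 132 and the OE bars 57.4 to 75.2, and most of the gap lies in the IGFBP4 segment.

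IGF1R, which encodes the receptor that the released IGFs act on, lies on chromosome 15 from 98648539 to 98964530. It measured 26.7, 20.7 and 18.6 FPKM in NC and 17.2, 22.9 and 16.4 FPKM in OE. The groups overlapped, with NC replicate 1 the highest of the 6. The log2 difference was -0.21, with a 95% interval from -0.62 to 0.19.

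In NC the order of levels per length was STC2, IGFBP4, IGFBP6, IGF1R, STC1, IGFBP2, IGFBP3, PAPPA2, PAPPA and IGFBP5. The library ranges of STC2 and IGFBP4 overlapped, as did those of IGF1R and STC1, and the other neighbours were separate. In OE the order was STC2, IGFBP6, IGFBP4, STC1, IGF1R, IGFBP2, PAPPA2, IGFBP3, PAPPA and IGFBP5. There the ranges of IGFBP4, STC1 and IGF1R overlapped, as did those of PAPPA2 and IGFBP3 and those of PAPPA and IGFBP5. The place of IGFBP4 among these genes therefore moved from beside STC2 to beside STC1 and IGF1R.

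Promoters (250 bases before to 50 after the start, RefSeq, GRCh38.p14) were given for 9 of the 10 genes, 11 in all, and were searched on both strands. TGATGNAA, the core of an amino acid response element, was in 0 of the 11 and in 3.62% of all 35116 promoters. TGACGTCA, the cAMP response element, was in 0 of the 11 and in 1.85% of all promoters. ACGTG, the core of a hypoxia response element, was in 2 of the 11, at IGF1R and at an inner start of IGFBP2, and in 21.4% of all promoters.

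The genes most like STC2 over the 6 libraries, by the root mean square difference of log2(FPKM + 1) after each gene's NC mean was subtracted, were TRIB3 (0.15), MT1E (0.17) and DUSP6 (0.26). TRIB3 encodes a pseudokinase induced by stress, and measured 92.9, 74.0 and 62.5 FPKM in NC and 415, 339 and 321 FPKM in OE. MT1E is a metallothionein, whose fragments may be shared with near-identical copies, and DUSP6 is a phosphatase that acts on ERK. The genes most like IGFBP4 were CDH3 (0.064), COL13A1 (0.081) and B3GALT6 (0.12). CDH3, which encodes P-cadherin, measured 111, 105 and 108 FPKM in NC and 40.6, 30.6 and 33.4 FPKM in OE. In both IGFBP4 and CDH3, OE replicate 1 was the highest of the OE libraries and replicate 2 the lowest. CDH3 was picked for its likeness over these same libraries, so the shared order follows from that choice. KRT8 and IGFBP6 had this order of OE libraries as well.

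The rest of the IGF axis was followed in 40 further genes, of which 29 had a mean of at least 1 FPKM. They were listed by function, but with earlier results of these data known. Of these, 2 were higher and 2 were lower in OE at an adjusted p of 0.05 (limma over all tested genes) and 25 did not pass. The median log2 difference was -0.03, and it was -0.03 over all tested genes. The 4 genes that passed make up a share near the 11.4% of all tested genes.

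The ligands were at or near 0. IGF1 and INS were listed at 0 in all libraries but OE replicate 1, where IGF1 was 0.03 FPKM, and IGF2 lay between 0.02 and 0.78 FPKM in 1 of its rows and at 0 in the other. Among the other binding proteins, IGFBP1 was at 0.05 FPKM or less, and IGFBPL1, an IGFBP-like protein, fell from 14.9, 15.5 and 16.0 FPKM in NC to 8.17, 10.9 and 10.4 FPKM in OE. The groups of IGFBPL1 did not overlap, and it changed by -0.62 on the log2 scale (SE 0.13; limma, adjusted p = 0.023). Of the other receptors, IGF2R, which takes up IGF2 for degradation, differed by 0.19 (limma, adjusted p = 0.17), and INSR, the insulin receptor, by -0.04 (95% interval from -0.28 to 0.21).

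PRG2, which encodes the precursor of eosinophil major basic protein, another inhibitor of PAPP-A, was at 0.07 FPKM or less. Among IGFBP proteases other than the PAPP-A pair, ADAM9 fell from 258, 262 and 261 FPKM to 142, 202 and 197 FPKM, or by -0.55 on the log2 scale (SE 0.13; limma, adjusted p = 0.042). OE replicate 1 was the lowest by far, and all OE libraries were under all NC libraries. HTRA1, a secreted serine protease, differed by -0.11 (95% interval from -0.36 to 0.13) on the log2 scale. CTSD, which encodes cathepsin D, differed by 0.21 (limma, adjusted p = 0.21).

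Among the adaptors that act below the receptor, 2 of 7 tested genes rose and 5 did not pass, where 4.69% of all tested genes passed as higher in OE. GRB10, an adaptor that restrains insulin and IGF signalling, rose from 19.1, 19.6 and 19.6 FPKM to 30.7, 28.1 and 31.6 FPKM, or by 0.61 on the log2 scale (SE 0.090; limma, adjusted p = 0.0089). IRS2, an insulin receptor substrate, rose from 6.28, 6.31 and 6.55 FPKM to 10.9, 8.51 and 9.33 FPKM, or by 0.51 on the log2 scale (SE 0.12; limma, adjusted p = 0.034). In both genes the OE libraries lay above the NC libraries, but the call of IRS2 was lost in 7 of 17 alternatives. IRS1, its paralogue, differed by 0.29 (limma, adjusted p = 0.22). GRB2, which links receptors to Ras, measured 39.4, 40.8 and 40.1 FPKM in NC and 83.7, 87.2 and 35.5 FPKM in OE, so OE replicate 3 lay below the NC libraries and the other two above them. Without OE replicate 3, the log2 difference of GRB2 was 1.07 and was called.

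None of the 13 tested genes of the PI3K arm passed (limma, adjusted p of 0.05); 3 had an unadjusted p under 0.05, as 3477 of all 12322 tested genes did, and 3 had groups without overlap, as 36.4% of all tested genes did. PDPK1, a kinase that acts below PI3K, measured 11.8, 11.5 and 10.8 FPKM in NC and 12.1, 23.5 and 23.2 FPKM in OE. OE replicate 1 was well below the other OE libraries, and without it PDPK1 differed by 0.98 and was called. AKT2 and PIK3R2 were also called in that fit, but as lower in OE. AKT2 measured 191.84, 198.05 and 196.85 FPKM in NC and 177.43 and 175.12 FPKM in OE replicates 2 and 3. PIK3R2 measured 28.0, 27.85 and 28.23 FPKM in NC and 21.59 and 23.15 FPKM in OE replicates 2 and 3. In that fit 3514 of all 12334 tested genes were called, 1620 as higher and 1894 as lower in OE. FOXO1 was called as higher in OE under quantile normalization, without moderation of the variance and after the GC and length correction. Of the IGF2 mRNA-binding proteins, IGF2BP3 had a log2 difference of 0.58 (95% interval from -0.08 to 1.24) and IGF2BP1 of -0.22 (95% interval from -0.46 to 0.02). Without OE replicate 1, IGF2BP3 was at 0.89 and was called.

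**Figure D3:**
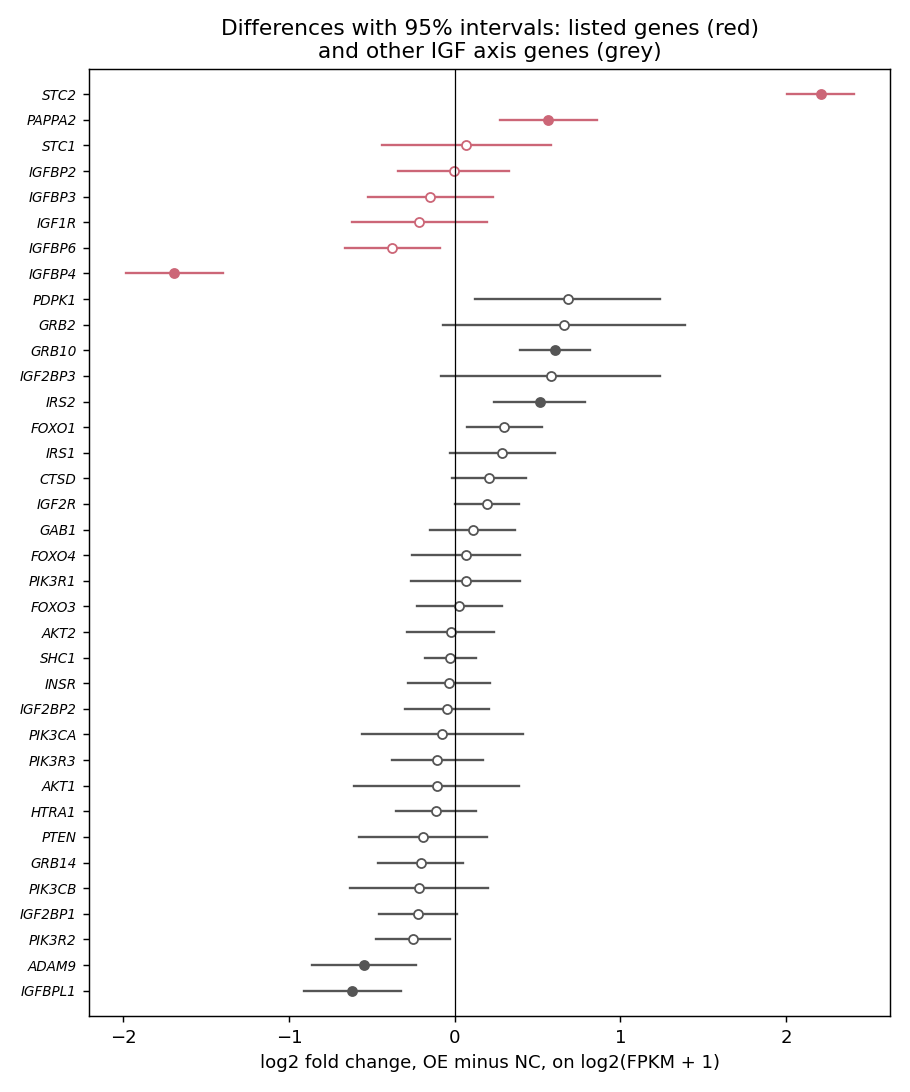
Log2 fold change (OE minus NC) with its 95% interval for the 8 tested genes of the stanniocalcin and IGFBP group (red) and 28 of the 29 tested genes of the rest of the IGF axis (grey); filled points have an adjusted p under 0.05. STC2 at 2.21 and IGFBP4 at -1.69 lie outside the range of the grey points, which runs from -0.62 to 0.68.

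The 4 calls in the rest of the axis were lost in part of the alternatives, while the log2 differences kept their direction (0.57 to 0.65 for GRB10, 0.43 to 0.59 for IRS2, -0.69 to -0.50 for IGFBPL1 and -0.64 to -0.38 for ADAM9 when 1 library was left out). Over all tested genes, 293 to 404 were called when 1 NC library was left out, against 1399 with all libraries. GRB10 was not called when NC replicate 1 or NC replicate 2 was left out (limma, adjusted p = 0.059 and 0.055), and IRS2, IGFBPL1 and ADAM9 were not called when OE replicate 3 or any 1 of the NC libraries was left out (limma, adjusted p = 0.069 to 0.14). Without moderation of the variance IRS2, IGFBPL1 and ADAM9 were not called, with no filter on low values IRS2 and ADAM9 were not, and under TPM scaling ADAM9 was not (limma, adjusted p = 0.050 to 0.14). The calls of STC2 and IGFBP4 held in all 17 alternatives, with log2 differences of 2.14 to 2.24 and of -1.82 to -1.60. Both were chosen with this contrast known, so this describes fits to the same libraries and is not a test.

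**Figure D4:**
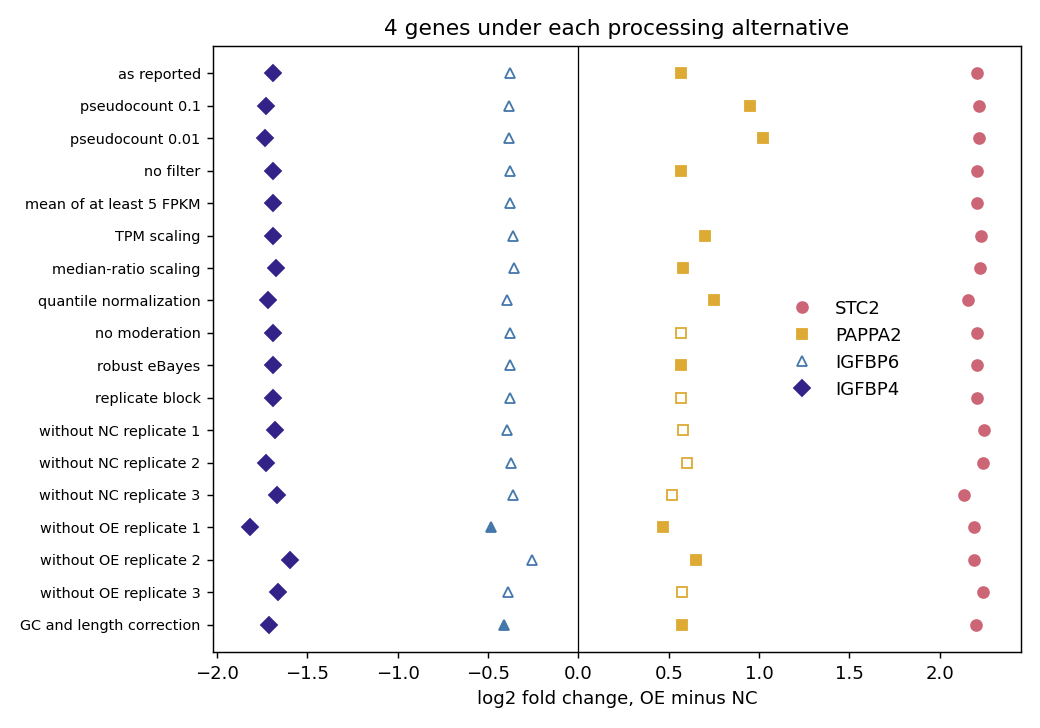
Log2 fold change of STC2, PAPPA2, IGFBP6 and IGFBP4 as reported and under each processing alternative (rows); filled points have an adjusted p under 0.05. STC2 and IGFBP4 stay filled in every row, PAPPA2 is open in 6 of the 16 alternatives where it was tested, and IGFBP6 is filled in 2.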

How the data were processed

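RNA-seq of 6 DU145 libraries, 3 NC and 3 OE, was analysed. Libraries were grouped by their GEO titles. The authors sequenced poly(A) RNA in paired-end mode and deposited FPKM values for 19727 genes, rounded to 2 decimals; the build in the submitters' processing notes is hg38, and the aligner, quantifier and annotation are not given in the sources used here. FPKM values are not counts, so log2(FPKM + 1) was tested with limma 3.58.1 in R 4.3.3 (trend, two-sided, no covariate) after genes whose mean over the libraries was under 1 FPKM were left out (12322 stayed), with Benjamini-Hochberg adjustment over all tested genes. The fit was tested on simulated data. FPKM is relative to the library total. Depth was computed from single-transcript genes under 800 nt, where 92.2% to 98.6% of the 62 to 76 low values per library lay within 0.15 of a whole fragment; fragments per gene used the longest coding transcript of GENCODE release 29 (GRCh38), which may not be the authors' annotation.

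All 10 genes, the genes of the IGF axis with an adjusted p under 0.05, up to 2 other examples a group and the 3 genes nearest to STC2 and to IGFBP4 were named; other genes were named for the point they stand beside. A few genes of the lists are counted but not reported here by name. The members and lists were chosen with earlier results of these data known. Alternatives were other pseudocounts, filters, scalings and variance models, a replicate block, leaving out each library and, chosen after seeing the data, a loess correction for GC content and length. Replicate numbers were not used to pair the libraries in the reported fit. Deviations from the group means correlated at 0.073, 0.0065 and 0.057 for numbers 1, 2 and 3. Between unequal numbers the correlation was -0.067 to 0.036. Such small values cannot show whether libraries of the same number shared a culture or a batch. Figures used matplotlib 3.10.9.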

Additional observations from a re-analysis of the deposited data

How the results depend on the processing

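The number of tested genes with an adjusted p under 0.05 was 1399, against 834 without moderation of the variance, 923 with the replicate block and 3354 after the GC and length correction, which was chosen after seeing the data; it ran from 293 to 3514 when 1 library was left out, the lowest without NC replicate 1 and the highest without OE replicate 1. Among the 8 tested members the number was 3, and 2 to 4 when 1 library was left out. It was 2 with the replicate block, where PAPPA2 was lost. In the rest of the IGF axis it was 4, against 2 with no filter on low values, 2 without moderation, 3 with the replicate block (IRS2 was lost, limma adjusted p = 0.069) and 0 to 8 when 1 library was left out; it was 0 without NC replicate 1 or NC replicate 2, where 5 genes had an unadjusted p under 0.05. CSPP1 kept a log2 fold change of 0.94 without moderation but not its call (limma, adjusted p = 0.077), and it ran from 0.82 to 1.13 when 1 library was left out, uncalled without OE replicate 3 or any 1 of the NC libraries. The cause was not tested in any of these. The sign was followed over the alternatives for part of the named genes, without AKT2, PIK3R2 and FOXO1. Among those followed, 3 genes that were not called changed sign. IGFBP2 was at 0.0070 under TPM scaling, 0.0071 under median-ratio scaling, 0.12 under quantile normalization and -0.11 to 0.090 without 1 library. STC1 ran from -0.10 to 0.27 without 1 library. INSR was at 0.063 under quantile normalization and from -0.087 to 0.0053 without 1 library. Not every library correlated best with its own number, and the block changed no other call of a member. Filtering at a mean of 5 FPKM left PAPPA2, IGFBP2 and IGFBP3 without a value. IGFBP6 was called without OE replicate 1 and after the GC and length correction.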
